A study of Mus musculus with 7 samples.

Results

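The genes described here copy the genome in S phase or supply its building blocks: origin licensing factors, the replicative helicase, polymerases and their accessory proteins, enzymes of deoxynucleotide synthesis, and the proteins that copy chromatin and DNA methylation behind the fork. They were taken as a list of 44 genes, and every probe set annotated with exactly 1 of their symbols was used. This gave 79 probe sets for 43 genes, out of 22626 probe sets for 12393 genes on the array; Chaf1a had none. Values were compared between 3 arrays of Met1 and 4 arrays of DB7, which the sample labels name as transplant tumours of these mouse lines. Both are mammary tumour lines from animals with a polyoma middle T transgene, an oncogene that recruits signalling enzymes to the cell membrane. Met1 is known to metastasise readily and DB7 seldom, and the middle T of DB7 is known to lack docking sites for PI3 kinase. The series' design text speaks instead of primary tumours in crosses with AKR/J and DBA/2J mice; the sample labels were followed. The labels give no treatment that separates the groups and no age, and each line stands for 1 transplantable tumour, so a difference between lines cannot be attributed to any single property of them. Nothing states that the arrays came from separate animals, so p-values here reflect the spread among these arrays alone, and that spread may be technical.

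In G1 the origin recognition complex, with Cdc6 and Cdt1, loads the MCM helicase onto DNA, and geminin (Gmnn) keeps Cdt1 from doing so again once S phase has begun. Cdc45 then helps to start the helicase, primase lays down primers, the clamp loader (RFC) places the sliding clamp PCNA, and the polymerases extend the new strands. Ribonucleotide reductase makes the deoxynucleotides, and many of the genes involved are transcribed together when E2F factors are released from the retinoblastoma protein. In tumour tissue, transcripts of this programme are used as a sign of how many cells are in cycle.

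Met1 tumours carried less of this programme than DB7 tumours. Of the 43 genes measured, 39 had a probe set bright enough to be tested, and 35 of these were lower in Met1, 1 was higher and 3 did not pass (limma, adjusted p under 0.05). Over all tested genes, 17.9% were lower in Met1 and 13% were higher, 30.9% in all. The median difference over the 39 genes was -0.62 on the log2 scale, against -0.04 over all 7482 tested genes. The ribonucleotide reductase subunit Rrm1 and the helicase subunits Mcm6 and Mcm5 were 2.99-fold, 2.64-fold and 2.35-fold lower. For 38 of the 39 genes no Met1 array fell within the DB7 range, 37 of them with Met1 below; this held for 39.2% of all tested genes, and for 23% with Met1 below. A fall of at least 2-fold was reached by 7 of them, against 2.42% of all tested genes. Fewer cycling cells and less of these transcripts per cycling cell cannot be told apart in bulk tumour RNA. Of the 39 genes, 6 (Gmnn, Cdc45, Pola1, Dut, Uhrf1 and Chaf1b) passed the brightness filter through DB7 arrays alone. A low Met1 value was thus built into their being tested. Of the other 33, 29 were lower in Met1. Pola2 and Pold1, counted among these 29, lay above the array median on only 1 Met1 array each.

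**Figure D1:**
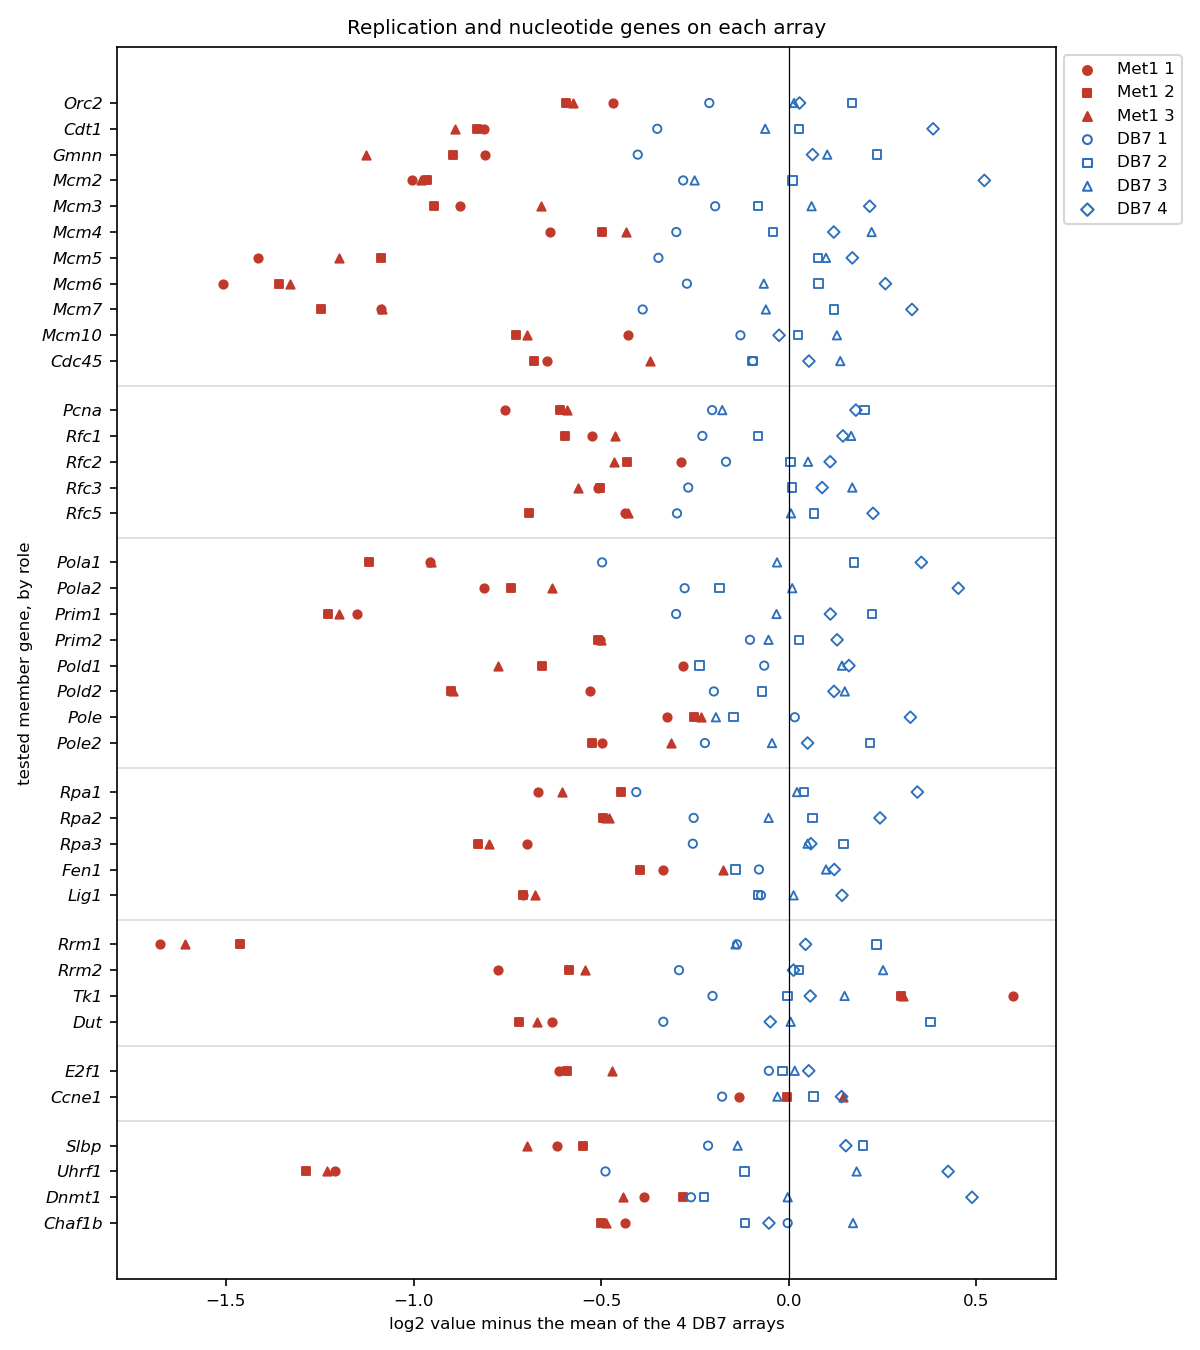
Log2 value of each of the 39 tested genes on each array, shown as the distance from that gene's mean over the 4 DB7 arrays; filled red symbols are Met1 arrays, open blue symbols DB7 arrays, grey lines separate the roles. The red symbols lie left of the blue ones except for Tk1, where they lie right, and Ccne1, where they mix.

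The promoters of these genes were searched for short sequence motifs. The list was drawn up by function, and many such genes are known to be driven by E2F factors. The motif shares are thus not independent of that choice. RefSeq promoter windows (GRCm38.p6, from 250 bases before the start of transcription to 50 after it) were given for 39 of the 44 genes. They were searched on both strands for 3 spellings of the E2F site, TTTCGCGC, TTTGGCGC and TTTCCCGC. They were also searched for the CCAAT box (CCAAT), which NF-Y binds, and for TTTGAA, the cell cycle homology region (CHR) of mitotic genes. An E2F spelling was found in 14 of the 39 genes, or 35.9%, against 2.12% of the 27025 genes with a window. The share was largest among licensing and helicase genes, at 7 of 11. A CCAAT box was found in 61.54% of the 39, against 41.06% of all genes, and TTTGAA in 12.82%, against 20.23%. The list of mitotic genes held the motifs in other proportions, with TTTGAA in 15 of 21 genes and an E2F spelling in 1 of 21. A match is a description of the letters and was not tested as a binding site. Tested genes with an E2F spelling had a median difference of -0.84 (11 of 12 lower in Met1) and those without one of -0.60 (20 of 22 lower).

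The 250 bases before the start are printed for 6 genes, because they show the arrangements behind these counts: Mcm6 and Mcm5 with overlapping E2F spellings that read on opposite strands, Uhrf1 and Pola1 with 1 spelling each, Rrm1, the gene with the largest difference, with CCAAT boxes only, and Tk1, the gene that went the other way, with neither. Capitals mark E2F spellings and CCAAT boxes on either strand. Uhrf1 had 2 promoter windows, and the window with the E2F spelling was printed. Its other window held CCAAT boxes and no E2F spelling. The windows lie at chr1:128359706-128359955 (minus strand) for Mcm6, chr8:75109259-75109508 (plus) for Mcm5, chr17:56304063-56304312 (plus) for Uhrf1, chrX:93632156-93632405 (minus) for Pola1, chr7:102441445-102441694 (plus) for Rrm1 and chr11:117826015-117826264 (minus) for Tk1.
Mcm6: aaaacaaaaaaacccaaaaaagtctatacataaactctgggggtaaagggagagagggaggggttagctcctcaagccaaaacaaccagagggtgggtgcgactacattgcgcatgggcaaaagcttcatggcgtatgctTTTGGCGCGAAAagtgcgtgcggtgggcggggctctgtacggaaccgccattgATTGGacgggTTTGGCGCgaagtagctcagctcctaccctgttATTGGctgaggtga
Mcm5: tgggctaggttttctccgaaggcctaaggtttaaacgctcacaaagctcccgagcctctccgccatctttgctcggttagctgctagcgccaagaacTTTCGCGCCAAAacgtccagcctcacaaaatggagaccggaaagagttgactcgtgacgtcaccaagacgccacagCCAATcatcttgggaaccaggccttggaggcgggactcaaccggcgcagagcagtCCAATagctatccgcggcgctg
Uhrf1: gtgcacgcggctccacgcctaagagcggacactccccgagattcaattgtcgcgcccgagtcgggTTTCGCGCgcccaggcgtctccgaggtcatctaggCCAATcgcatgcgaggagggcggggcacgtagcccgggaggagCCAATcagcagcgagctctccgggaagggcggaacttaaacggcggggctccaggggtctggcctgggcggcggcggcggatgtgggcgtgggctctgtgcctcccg
Pola1: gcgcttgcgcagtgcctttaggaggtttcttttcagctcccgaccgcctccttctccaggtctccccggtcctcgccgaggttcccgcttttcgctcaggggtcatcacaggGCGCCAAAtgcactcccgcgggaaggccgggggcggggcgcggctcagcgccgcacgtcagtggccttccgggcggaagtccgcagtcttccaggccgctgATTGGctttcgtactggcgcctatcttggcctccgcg
Rrm1: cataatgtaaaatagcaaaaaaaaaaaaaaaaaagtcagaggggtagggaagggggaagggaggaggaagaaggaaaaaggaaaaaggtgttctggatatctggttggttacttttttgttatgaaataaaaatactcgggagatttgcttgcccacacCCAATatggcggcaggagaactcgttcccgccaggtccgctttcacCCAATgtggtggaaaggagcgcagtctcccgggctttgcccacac
Tk1: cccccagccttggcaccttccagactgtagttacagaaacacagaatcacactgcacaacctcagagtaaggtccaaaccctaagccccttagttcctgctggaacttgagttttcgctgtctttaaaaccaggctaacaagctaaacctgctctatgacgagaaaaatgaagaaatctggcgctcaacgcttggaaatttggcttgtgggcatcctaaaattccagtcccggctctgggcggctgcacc

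**Figure D2:**
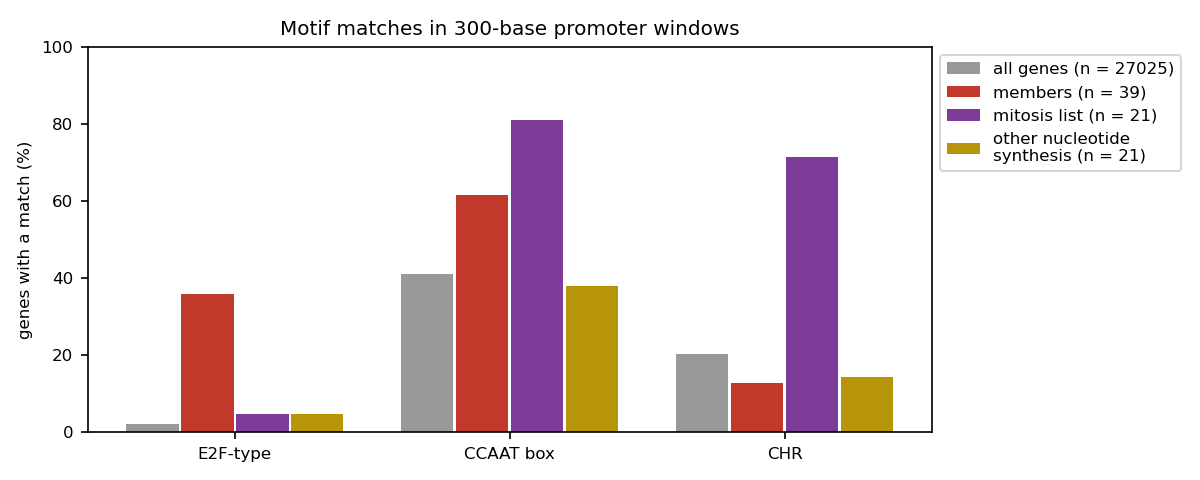
Percentage of genes whose 300-base promoter window held at least 1 match to each motif, for all genes with a window, the replication genes, the mitotic list and the list of other nucleotide synthesis genes. E2F spellings stood at 35.9% of the replication genes and 2.12% of all genes, and the CHR was frequent in the mitotic list alone among the sets drawn.

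All 11 tested genes of licensing and helicase function were lower in Met1, with a median difference of -0.84. Mcm6, a subunit of the helicase ring, measured 7.65, 7.80 and 7.83 on Met1 arrays 1 to 3 and 8.89, 9.24, 9.09 and 9.41 on DB7 arrays 1 to 4 (log2). Every DB7 array lay above every Met1 array, with a gap wider than the spread within either line. Its difference was -1.40 (SE 0.13, adjusted p = 8.34e-05), and its other tested probe set differed by -1.44. That other probe set was tested through DB7 arrays alone, so a low Met1 value was built into its being tested. Mcm5, another subunit of the ring, measured 7.46, 7.78 and 7.67 in Met1 and 8.52, 8.95, 8.97 and 9.04 in DB7, a difference of -1.23 (SE 0.14; adjusted p = 0.000266). Mcm7 measured 9.08, 8.92 and 9.08 in Met1 and 9.78, 10.29, 10.11 and 10.50 in DB7 (difference -1.14, SE 0.16; adjusted p = 0.000799). All 4 tested probe sets of Mcm7 were lower in Met1, with differences of -0.71 to -1.22. The Mcm7 probe set at -0.72 was tested through DB7 arrays alone. Mcm3 measured 7.22, 7.15 and 7.44 against 7.90, 8.02, 8.16 and 8.32 (difference -0.83, SE 0.11, adjusted p = 0.000859). Its 4 tested probe sets differed by -0.83 to -1.09, and the probe set at -1.09 was tested through DB7 arrays alone. In each of these 4 genes, DB7 array 1 was the lowest of the DB7 arrays and DB7 array 4 the highest.

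Of the remaining ring subunits, Mcm2 was 1.98-fold lower by its brighter probe set and differed by -0.36 by its other one, and Mcm4 was 1.44-fold lower (difference -0.52, adjusted p = 0.0135). The Mcm4 call was lost without Met1 array 1 (adjusted p = 0.0596). Gmnn, the inhibitor of relicensing, was 1.92-fold lower and Cdt1, the loader it binds, 1.79-fold lower, so the inhibitor and its target were both lower. Mcm10, which helps to activate the loaded helicase, and Cdc45, part of the active helicase, were 1.53-fold and 1.48-fold lower. Orc2, a subunit of the origin recognition complex, was 1.46-fold lower. Cdc6 and Orc1 did not pass the brightness filter. Cdc6 measured 5.39 to 5.55 in Met1 and 5.75 to 6.53 in DB7, a difference of -0.74 (SE 0.17; adjusted p = 0.0157 in a fit of every probe set). Orc1 measured 5.74 to 5.81 and 5.94 to 6.17, a difference of -0.22 (SE 0.08; adjusted p = 0.0985 in that fit).

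Clamp and clamp loader genes were lower in all 5 tested cases, by -0.39 to -0.65 when each gene was read by its brightest probe set. Pcna, the sliding clamp that tethers the polymerases, measured 10.09, 10.24 and 10.26 in Met1 and 10.65, 11.05, 10.67 and 11.03 in DB7 (difference -0.65, SE 0.12; adjusted p = 0.00419). The loader's large subunit Rfc1 measured 7.64, 7.56 and 7.70 against 7.93, 8.08, 8.33 and 8.30 (difference -0.53, SE 0.11; adjusted p = 0.00631). Rfc3 measured 6.71, 6.71 and 6.65 against 6.95, 7.22, 7.38 and 7.30 (difference -0.52, SE 0.11; adjusted p = 0.00596). In all 3 genes every DB7 array lay above every Met1 array. The other tested probe sets of Rfc1 and Rfc3 differed by -0.61 and -1.11 (limma adjusted p = 0.00462 and 0.00187), so Rfc3 gave unequal readings. Both of these probe sets were tested through DB7 arrays alone. Rfc2 measured 8.83, 8.68 and 8.65 against 8.95, 9.12, 9.17 and 9.23 (difference -0.39; adjusted p = 0.0123), a call lost without Met1 array 2 (0.055) or Met1 array 3 (0.0621). Rfc5 was 1.43-fold lower (adjusted p = 0.0154), a call lost without Met1 array 2 (0.073). Rfc4 did not pass the brightness filter; its probe sets differed by -0.71 and -0.77 (adjusted p = 0.0219 and 0.0271 in a fit of every probe set).

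Of 8 primase and polymerase genes, 7 were lower in Met1. Prim1, the catalytic primase subunit, measured 7.72, 7.64 and 7.67 in Met1 and 8.57, 9.09, 8.83 and 8.98 in DB7 (difference -1.19, SE 0.12; adjusted p = 0.000158). Its other probe set differed by -1.02 and was tested through DB7 arrays alone. Pola1, the catalytic subunit of the polymerase that works with primase, measured 6.46, 6.30 and 6.46 against 6.92, 7.59, 7.39 and 7.77 (difference -1.01, SE 0.18; adjusted p = 0.00297). The DB7 arrays of Pola1 spread far more than the Met1 arrays and still lay above all of them. Prim2, the large primase subunit, measured 6.71, 6.71 and 6.72 against 7.11, 7.24, 7.16 and 7.34 (difference -0.50, SE 0.08; adjusted p = 0.00156). Pold2, an accessory subunit of the lagging strand polymerase delta, measured 7.53, 7.16 and 7.17 against 7.86, 7.99, 8.21 and 8.18 (difference -0.77, SE 0.12; adjusted p = 0.00177).

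Pola2, the partner subunit of Pola1, was 1.65-fold lower, and Pold1, the catalytic subunit of polymerase delta, 1.49-fold lower (adjusted p = 0.0144). The Pold1 call was lost without Met1 array 2 (adjusted p = 0.0621) or Met1 array 3 (0.0659). Polymerase epsilon, which copies the leading strand, showed the smallest changes. Its accessory subunit Pole2 was 1.36-fold lower (adjusted p = 0.0152), a call lost without Met1 array 1 (0.0587) or Met1 array 2 (0.0665). Its catalytic subunit Pole measured 6.61, 6.68 and 6.70 in Met1 and 6.95, 6.79, 6.74 and 7.26 in DB7. The Pole groups did not overlap, but the gap was small beside the DB7 spread, and the difference of -0.27 (SE 0.12) did not pass (adjusted p = 0.133).

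The 5 genes of single-strand binding and lagging strand completion were lower in Met1. Lig1, the ligase that joins Okazaki fragments, measured 7.88, 7.88 and 7.91 in Met1 and 8.51, 8.50, 8.60 and 8.73 in DB7 (difference -0.70, SE 0.08; adjusted p = 0.000334). Rpa3, the small subunit of the single-strand binding protein RPA, measured 7.0, 6.87 and 6.90 against 7.44, 7.84, 7.75 and 7.75 (difference -0.78, SE 0.10; adjusted p = 0.000672). Both had tight Met1 values and a clear gap to DB7. Rpa2 measured 6.60, 6.60 and 6.62 against 6.84, 7.16, 7.04 and 7.34 (difference -0.49, SE 0.11; adjusted p = 0.0107). Rpa1, the large subunit, measured 9.09, 9.31 and 9.15 against 9.35, 9.80, 9.78 and 10.10 (difference -0.57, SE 0.16; adjusted p = 0.0243). The highest Met1 and the lowest DB7 value of Rpa1 nearly met, and its call was lost without Met1 array 1 (0.0889), Met1 array 3 (0.0801), DB7 array 2 (0.052) or DB7 array 3 (0.0574). The other tested probe set of Rpa1 measured 8.01 to 8.14 in Met1 and 8.25 to 8.75 in DB7 (difference -0.52, limma adjusted p = 0.0122). Fen1, the flap nuclease of lagging strand maturation, gave unequal readings. Its brighter probe set differed by -0.30 (adjusted p = 0.0456) and its other one by -0.82 (adjusted p = 0.00275). The brighter one lost its call without Met1 array 1 (0.131), 2 (0.169) or 3 (0.0546), or DB7 array 3 (0.106) or 4 (0.0943), and under quantile normalization (0.0815) and median centring (0.065).

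Deoxynucleotide supply held the largest difference of the programme and its only gene higher in Met1. Rrm1, the large subunit of ribonucleotide reductase, measured 8.27, 8.48 and 8.33 in Met1 and 9.80, 10.18, 9.80 and 9.99 in DB7 (difference -1.58, SE 0.11; adjusted p = 2.57e-05). Its other probe set, which differed by -1.64, read alike. Rrm2, the small subunit, whose transcript is restricted to S phase, measured 8.39, 8.58 and 8.62 against 8.88, 9.20, 9.42 and 9.18 (difference -0.63, SE 0.13; adjusted p = 0.00598). The other 2 tested probe sets of Rrm2 did not pass, at -0.30 (adjusted p = 0.168) and -0.50 (adjusted p = 0.117), and their groups overlapped. Dut, which removes dUTP, measured 6.50, 6.41 and 6.46 against 6.80, 7.51, 7.14 and 7.08 (difference -0.67, SE 0.15; adjusted p = 0.00814). Tk1, the salvage enzyme thymidine kinase, measured 9.57, 9.27 and 9.27 in Met1 and 8.77, 8.97, 9.12 and 9.03 in DB7. Every Met1 array lay above every DB7 array, and Tk1 was 1.32-fold higher (difference 0.40, SE 0.11; adjusted p = 0.0274). This call was lost without Met1 array 1 (adjusted p = 0.106), 2 (0.0513) or 3 (0.053). Tyms, thymidylate synthase, was not tested: its 3 probe sets measured 3.69 to 4.52 over the 7 arrays, far below the array medians of 6.53 to 6.61, and differed by -0.13, -0.19 and -0.44 (adjusted p = 0.279, 0.135 and 0.0152 in a fit of every probe set). A further probe set annotated to Tyms together with a pseudogene was not used.

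Partners of the same complex were set against each other within each array, for 6 pairs. The value of Rrm1 minus that of Rrm2 shifted by -0.95 in Met1 against DB7, with ranges that did not overlap (exact permutation test, two-sided, p = 0.0286, the smallest the 35 divisions of the arrays allow; 0.0857 adjusted over the 6 pairs). For Prim1 against Prim2 the shift was -0.69 with the same p-values, also by exact permutation. The pairs Pola1/Pola2, Pold1/Pold2, Pole/Pole2 and Cdt1/Gmnn shifted by -0.28, 0.20, 0.17 and 0.10 (exact permutation p = 0.114, 0.0857, 0.429 and 0.6). No pair passed after adjustment, and with 6 pairs the design would need several of them at the smallest p to do so.

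The regulators of S phase entry parted. E2f1, an activating E2F factor and itself an E2F target, measured 6.73, 6.75 and 6.88 in Met1 and 7.29, 7.33, 7.36 and 7.40 in DB7 (difference -0.56, SE 0.07; adjusted p = 0.000574). All its DB7 arrays lay close together and above the Met1 arrays. Ccne1, cyclin E1, which drives entry into S phase with Cdk2, measured 6.73, 6.85 and 7.0 against 6.68, 6.92, 6.83 and 7.0, and the groups overlapped over nearly their whole range (difference 0.00, SE 0.10; adjusted p = 0.987).

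Of 4 tested genes that copy chromatin and methylation, 3 were lower in Met1. Uhrf1, which brings the maintenance methyltransferase to hemimethylated DNA, measured 6.44, 6.36 and 6.42 in Met1 and 7.16, 7.53, 7.83 and 8.07 in DB7 (difference -1.24, SE 0.19; adjusted p = 0.0013). Its Met1 arrays nearly coincided while DB7 spread widely, and its other probe set differed by -0.77. Both Uhrf1 probe sets were tested through DB7 arrays alone. Slbp, the binding protein of histone transcripts, measured 7.81, 7.88 and 7.73 against 8.22, 8.63, 8.30 and 8.58 (difference -0.62, SE 0.12; adjusted p = 0.00398). Chaf1b, a subunit of the chromatin assembly factor CAF-1, measured 6.59, 6.52 and 6.54 against 7.02, 6.91, 7.19 and 6.97 (difference -0.47, SE 0.09; adjusted p = 0.0035). Dnmt1, the maintenance methyltransferase, measured 8.51, 8.61 and 8.46 against 8.64, 8.67, 8.89 and 9.39. Its DB7 mean was carried by DB7 array 4, and the difference of -0.37 (SE 0.17) did not pass (adjusted p = 0.135); its other probe set differed by -0.43 (adjusted p = 0.117).

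At the level of probe sets the picture was the same. Of 59 tested probe sets of these genes, 52 were lower and 1 higher in Met1, against 17.6% and 13.4% of all 11704 tested probe sets. More than 1 probe set was tested for 15 genes. In 14 of them all probe sets had the same call, and Rrm2 was the exception. Besides those of the 6 genes named above, probe sets of Mcm3, Mcm6, Mcm7, Rfc1, Rfc3, Prim1 and Rpa2 were tested through DB7 arrays alone. A low Met1 value was built into their being tested, so their calls and their accord with the brighter probe sets carry that limit.

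Further genes of the same processes were lower in smaller shares, to be read against the 17.9% of all tested genes. Of 18 other tested fork and origin genes, 10 were lower and 0 higher (8 did not pass; median -0.46). Gins1, part of the active helicase, was 1.77-fold lower, Orc6 1.74-fold, Tipin, a fork protection factor, 1.7-fold, and the fork scaffold Wdhd1 1.47-fold. Gins1, Wdhd1 and Dbf4 lay above the array median on no Met1 array, so a low Met1 value was built into their being tested. Of the other 15, 7 were lower, among them Orc6, which lay above the median on only 1 Met1 array. Of 8 histone chaperone and chromatin assembly genes, 5 were lower and 0 higher, among them Hells and Hat1, each 2.12-fold, Asf1a, 1.4-fold, and Asf1b, 1.25-fold (adjusted p = 0.0385; lost without Met1 array 2 or 3 or DB7 array 1, 3 or 4, at 0.0509 to 0.142). Hells and Hat1 were likewise tested through DB7 arrays alone, and 3 of the other 6 were lower. For nucleotide synthesis outside the list, 4 of 17 tested genes, or 23.5%, were lower and 0 higher, with a median of -0.15, a share near that of all tested genes. Those 4 were Paics, of purine synthesis (1.71-fold), Dtymk, thymidylate kinase (1.59-fold), Shmt1, a folate cycle enzyme (1.28-fold), and Ctps, CTP synthase (1.32-fold). The calls of Shmt1 and Ctps were lost without any single Met1 array and without DB7 array 3 or 4, at adjusted p of 0.0538 to 0.143 and 0.0612 to 0.156. The Ctps call was also lost under quantile normalization (0.0656) and median centring (0.0673).

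In the E2F and RB network, 9 of 13 tested genes were lower and 1 higher. Ccna2, cyclin A2, was 2.67-fold lower, E2f8, a repressive E2F, 1.75-fold, Rbl1, the retinoblastoma relative p107, 1.73-fold, and Cdk2 1.58-fold. E2f8, Rbl1 and Mybl2 were tested through DB7 arrays alone. Of the other 10, 6 were lower and 1 higher. Cdk2 and Cdc25a, counted among those 6, lay above the array median on only 1 Met1 array each. The gene that was higher, named after its values were seen, was Cdkn1a, the inhibitor p21. It measured 10.11, 8.99 and 9.29 in Met1 and 8.45 to 8.89 in DB7 (difference 0.72, SE 0.24; adjusted p = 0.0477). Its call was lost without any single array other than Met1 array 2, at adjusted p of 0.0588 to 0.107. The list of mitotic genes, which act after replication, stood at a median of -0.90 with 18 of 19 tested genes lower. Those with the smallest limma p were Birc5 (4-fold lower), Top2a (2.72-fold), Ube2c (2.41-fold) and Tpx2 (2.01-fold). Of these 19, Aurkb, Kif11 and Ttk were tested through DB7 arrays alone, and 15 of the other 16 were lower. The replication genes' median was -0.62, and no test was made of the 2 lists against each other.

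**Figure D3:**
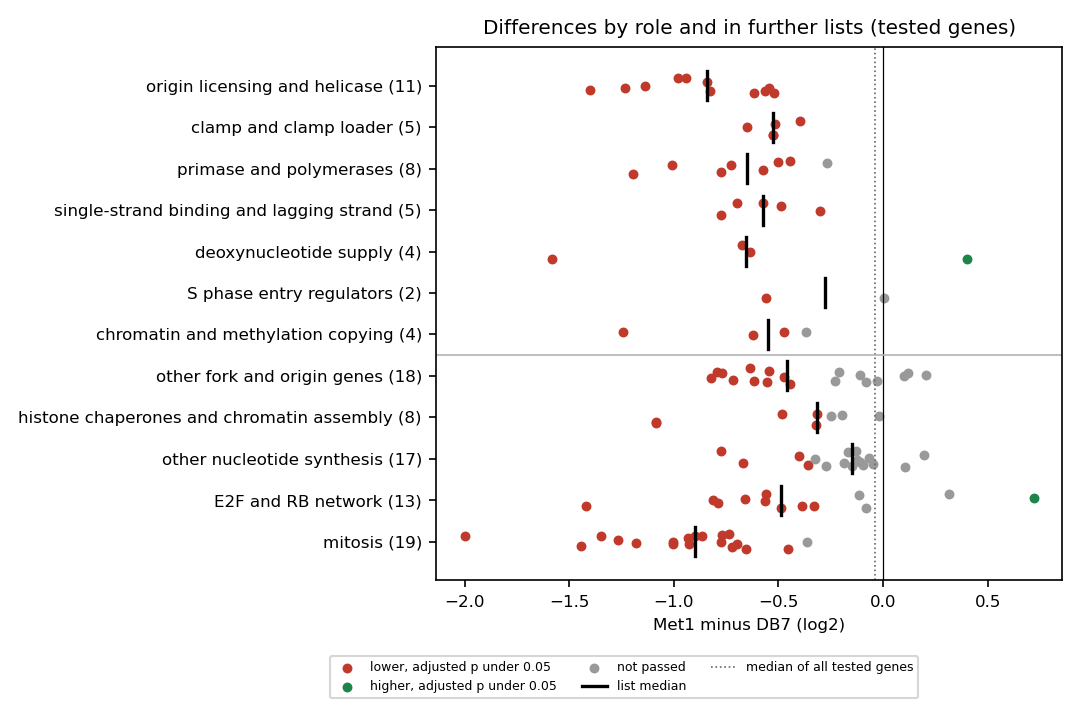
Met1 minus DB7 (log2) of each tested gene, by role above the grey line and in further lists below it, with the number of tested genes in brackets; colours give the limma call at an adjusted p of 0.05, black bars the list medians, and the dotted line the median of all tested genes. Licensing and helicase genes centre on -0.84, other nucleotide synthesis genes on -0.15 and the mitotic list on -0.90.

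The genes were scattered over the genome. The 39 tested genes lie on 16 chromosomes in the RefSeq gene order of GRCm38.p6, which was used here only to find neighbours. Rrm2 stood against its surroundings. Of the 10 tested genes on each side of it on chromosome 12, 12 were higher in Met1, 2 were lower and 6 did not pass, with a median of 0.44, while Rrm2 itself was lower. Its immediate neighbours Grhl1 and Mboat2 differed by 0.77 and 0.67. Rrm2 was not alone in this. Pole2, also lower and also on chromosome 12, had 20 such neighbours with 7 higher and 2 lower (median 0.22). Dut, lower and on chromosome 2, had 7 higher and 1 lower (median 0.07). Tk1 lay between contrasting stretches of chromosome 11. Among the 10 tested genes before it, 5 were higher and 2 lower (median 0.24), and among the 10 after it, 0 were higher and 6 lower (median -0.54). The tested genes next to Tk1, Syngr2 before it and Birc5 after it, differed by -0.10 (not passed) and -2.00. Tmc6, which precedes Syngr2, was lower (-0.46), so Tk1 was higher beside genes that were not. These neighbourhoods were picked after the values of Rrm2 and Tk1 had been seen.

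**Figure D4:**
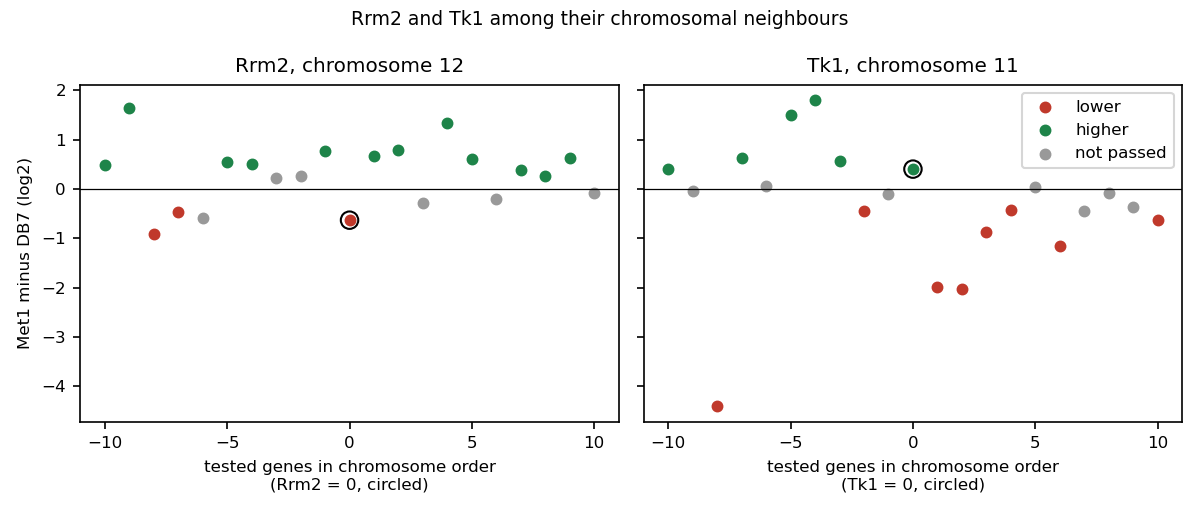
Met1 minus DB7 (log2) of Rrm2 and Tk1 (circled, position 0) and the 10 tested genes on each side in chromosome order; colours give the limma call. Rrm2 lies below 0 among neighbours with a median of 0.44, and Tk1 lies above 0 between a side with median 0.24 and a side with median -0.54.

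The spread of these genes differed between the lines. Their median SD within Met1 was 0.09, as for all tested genes (0.09), and within DB7 0.21, against 0.14 for all tested genes. The mean over the 39 genes lay between 7.52 and 7.56 on the Met1 arrays. On DB7 arrays 1 to 4 it was 7.99, 8.25, 8.25 and 8.39, so DB7 array 1 stood nearest to Met1. DB7 array 1 was the lowest DB7 array for 32 of the 39 genes, against 34.3% of all tested genes. DB7 array 4 was the highest for 21 of them. The matching share of all tested genes was not taken, so the count of 21 cannot be read as particular to these genes. Without DB7 array 1, 35 genes were lower in Met1 and the median difference was -0.69. Without DB7 arrays 1 and 4 it was -0.64, with 33 lower.

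Markers of other cell types varied beside these values. The labelled tissue was matched by epithelial genes, with Epcam at 11.42 to 11.73 in Met1 and 11.96 to 12.14 in DB7. Of 5 tested epithelial markers, 4 were lower in Met1: Krt7 (3.45-fold), Krt18 (2.01-fold), Epcam (1.40-fold) and Krt8 (1.25-fold). Cdh1 did not pass (difference 0.06), and Krt19, not tested, differed by 0.15. The mean of all 6 measured epithelial markers was 9.38 to 9.70 in Met1 and 9.98 to 10.15 in DB7, without overlap. The mean of 7 fibroblast markers was 9.01 to 9.60 in Met1 and 8.12 to 9.76 in DB7, highest on DB7 array 1. For 6 macrophage markers it was 8.66 to 9.04 and 8.17 to 9.06, again highest on DB7 array 1, and 1 marker, Cd14, was higher in Met1. For 5 B and plasma cell markers it was 5.07 to 5.30 in Met1 but 6.53 and 6.73 on DB7 arrays 1 and 4, against 5.29 and 5.42 on arrays 2 and 3. Of these 5, Cd79a, Cd79b and Pou2af1 lay below the array median on every array. Thus the DB7 arrays with the highest B cell markers had the lowest and the highest mean of the replication genes. Means of 6 T cell markers were 6.04 to 6.24 in Met1 and 6.13 to 6.51 in DB7, of 6 endothelial markers 6.65 to 6.93 and 6.44 to 7.09, and of 3 adipocyte markers 6.79 to 8.94 and 6.56 to 9.07. The part of any of these cell types in the difference was not tested.

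**Figure D5:**
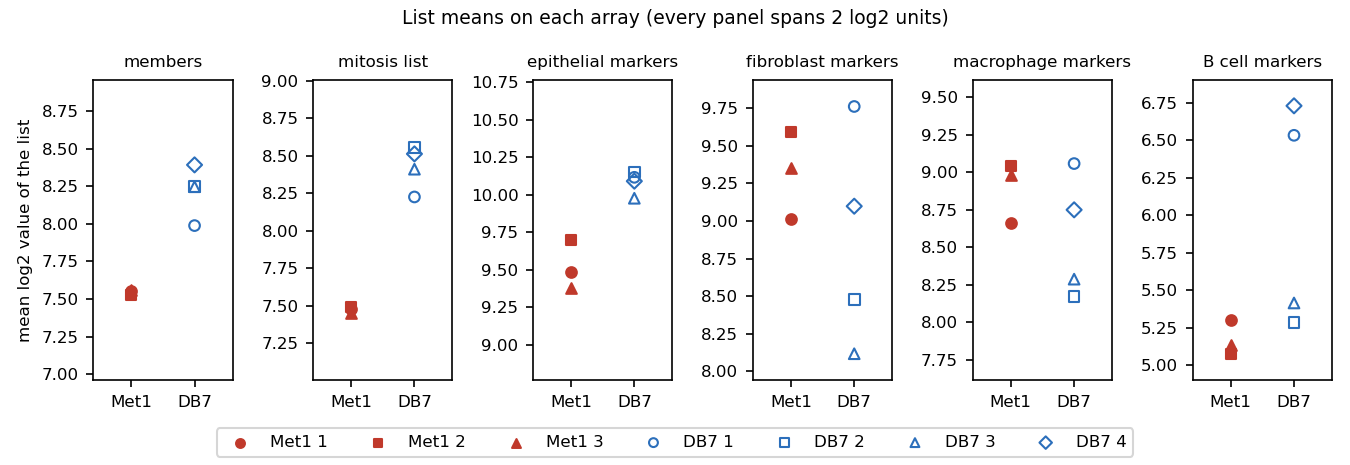
Mean log2 value of the 39 replication genes, the mitotic list and 4 marker lists on each array; filled red symbols are Met1, open blue symbols DB7, symbol shape gives the array number, and every panel spans 2 log2 units. The replication genes lie at 7.52 to 7.56 in Met1 and 7.99 to 8.39 in DB7. The mitotic list and the epithelial markers also lie apart, the latter at 9.38 to 9.70 in Met1 and 9.98 to 10.15 in DB7. The fibroblast, macrophage and B cell panels overlap.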

How the data were processed

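The authors deposited 1 log2 value per probe set and array; the log2 scale was judged from the range of the values, since no source used here states it. RMA and MAS5 are both listed in the submitters' processing notes, and neither has a stated role or version. After removal of 64 control probe sets, 22626 remained, of which GEO's platform annotation gives 20380 a single gene symbol, 691 several and 1555 none. Testing was limited to probe sets brighter than the median of their array on 3 or more of the 7 arrays. A probe set bright in Met1 alone thus had to be bright on all 3 Met1 arrays. One bright in DB7 alone needed only 3 of the 4 DB7 arrays, so the filter favoured genes lower in Met1. Met1 was compared with DB7 in limma 3.58.1 (R 4.3.3), with group as the sole factor, an intensity trend in eBayes, Benjamini-Hochberg adjustment over the 11704 tested probe sets and an adjusted p under 0.05 as the call. Differences are log2, Met1 minus DB7, with moderated standard errors (SE). Where a gene had several tested probe sets, the brightest on average stood for it. The fit was tested on simulated data.

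The genes, lists and alternatives were chosen with earlier results of these data known; the pairs of complex partners, the motif search and the neighbours were added after values were seen. Array values are given for the 4 genes of each role with the smallest p and for those that did not pass or were higher, and up to 4 genes of each further list are named.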

Additional observations from a re-analysis of the deposited data

Results flagged for a closer look

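One gene of the further lists had a DB7 array far from the other DB7 arrays. Rbl1 measured 6.65 on DB7 array 1, while the other DB7 arrays lay between 7.07 and 7.11. The gap to the nearest array, divided by the range of the group, was set against the 95% critical value of Dixon's test. Of 79 sets of DB7 values checked in this way, 1 passed, whereas chance alone gives about 1 in 20.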

How the results depend on the processing

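The 18 alternatives changed few calls. Of the 39 tested genes, 28 kept their side of the threshold and their direction in every alternative that tested them, and 30 in all 7 fits that left out 1 array. The count of genes lower in Met1 was 30 to 36 of 39 or more tested genes, except 19 of 21 under the stricter brightness filter and 30 of 32 without probe sets whose suffix marks shared sequence; leaving out 1 array gave 30 to 35. For probe sets the count was 24 of 28 and 34 of 37 under those settings, where fewer were tested, and 45 to 54 without 1 array. The only gene higher, Tk1, was not called with the replicate block (0 genes and 0 probe sets higher) or without DB7 arrays 1 and 4 (0 and 0), and the count without 1 array was 0 to 1. The median difference was -0.57 to -0.69 throughout. Ccne1 changed sign at sizes below its SE of 0.10 in the main fit. Its difference was -0.015 without DB7 arrays 1 and 4. Over the fits without 1 array it was -0.068 (without Met1 array 3) to 0.070 (without Met1 array 1). Dnmt1 passed with array weights (adjusted p = 0.0385), and Rrm2 did not by its most variable probe set (0.117). Replicate numbers did not pair the samples, since deviations of same-numbered arrays correlated at -0.17, -0.05 and 0.02; the replicate block gave 30 genes lower. The split of calls over all tested genes moved from 1343 lower and 970 higher to 1104 and 1118 under median centring, while 34 and 1 replication genes were called. Of 21 further genes named, 16 kept their call. With 3 and 4 arrays a line, small differences could not be resolved.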

Other observations

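Rb1, the retinoblastoma protein that restrains E2F factors, did not pass the brightness filter. It lay above the array median on Met1 arrays 1 and 2 and below it on the others. Its probe set measured 6.82, 6.56 and 6.25 on the Met1 arrays and 5.05, 5.15, 5.21 and 4.73 on the DB7 arrays, a difference of 1.51 (SE 0.15) with no overlap. It was singled out after its values were seen and was not part of the tested set. Its relative Rbl2 was not tested either and differed by -0.08.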
